A study of Homo sapiens with 2 samples.

Results

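The replication-dependent histone genes lie in the clusters HIST1, HIST2, HIST3 and HIST4 and encode the core histones H2A, H2B, H3 and H4 and the linker histone H1. They were taken here by symbol, as every listed gene whose symbol begins with HIST, the number of its cluster, and H. The 4 pseudogenes whose symbols end in PS and a number were left out. This gave 62 of the 16424 genes with deposited values, and 54 of the 62 averaged at least 1 CPM over both libraries and are called expressed here. CPM are the tags of a gene per 1000000 tags of its library. Core histones form the spool on which DNA is wound, and H1 binds the DNA between spools. The genes of this kind are mostly transcribed in S phase, have no introns in their stem-loop form, and give mRNAs that end in a conserved stem-loop instead of a poly(A) tail. The stem-loop binding protein SLBP and the U7 snRNP form that end, and the mRNAs are degraded when DNA replication stops.

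Capped 5′ ends of RNA were sequenced by cap analysis of gene expression (CAGE) in PLC/PRF/5 cells, an established human hepatoma line. The non-treated group (0 µg/ml) was a single library of PLC/PRF/5 cells without added protein. The M2BPGi-treated group was a single library of the same line given 3 µg/ml M2BPGi, a glycosylated form of Mac-2 binding protein, for 6 h. The study made the libraries to look for signals that M2BPGi alters in hepatoma cells.

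Tags read back from the CPM came to 24040209 in the non-treated and 24862941 in the M2BPGi-treated library. Each condition had 1 library, so the conditions were not tested against each other. The log2 ratio is that of M2BPGi-treated to non-treated CPM after a pseudocount of 1 CPM was added to each, which draws the ratios of low genes towards 0. Folds of single genes or sums are ratios of tag shares without a pseudocount, with 95% Clopper-Pearson intervals. These intervals cover counting error only. A tag stands for 1 capped 5′ end, so CPM was not divided by transcript length when levels of genes were compared. Where no tag was seen, the level may still be as high as 0.125 CPM without and 0.121 CPM with M2BPGi.

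Histone cluster genes were higher in M2BPGi-treated cells across all 5 classes. Their CPM summed to 15373 in the non-treated and 22809 in the M2BPGi-treated library, or 1.54% and 2.28% of all tags. The ratio of the sums was 1.48 (interval 1.478 to 1.49). Of the 54 expressed members, 53 had a log2 ratio above 0, against 42.9% of all 13724 expressed genes. The exception was HIST1H3E. By the rule of at least 1.5-fold, 19 members were higher, against 1.6% of all genes, and 0 members were lower, against 4.04%. At least 2-fold higher were 3 members, against 0.24% of all genes. The counting interval of the tag ratio lay above 1 for 52 members, against 22.8% of all genes. The median log2 ratio was 0.51 for the members and -0.05 for all genes. With the libraries rescaled so that the median of all genes was 0, 53 members were still above 0 and 24 were at least 1.5-fold higher. That rescaling moved the numbers of all genes at least 1.5-fold higher and lower from 219 and 555 to 304 and 435. A larger share of cells in S phase and more histone RNA per cell cannot be told apart in bulk RNA.

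Abundant genes as a group were less shifted. The 42 members averaging at least 100 CPM had a median log2 ratio of 0.52, and 16 of them were at least 1.5-fold higher. Among all 1924 genes with that mean, the median was 0.10 and 39 were at least 1.5-fold higher. So 16 of the 39 abundant genes at least 1.5-fold higher were histone cluster genes. The order of the members hardly differed between the libraries, with a Spearman's rho of 0.982 across 54 genes, which are not independent replicates. The 10 most abundant members held 42.7% of the members' CPM in the non-treated and 42.2% in the M2BPGi-treated library.

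**Figure D1:**
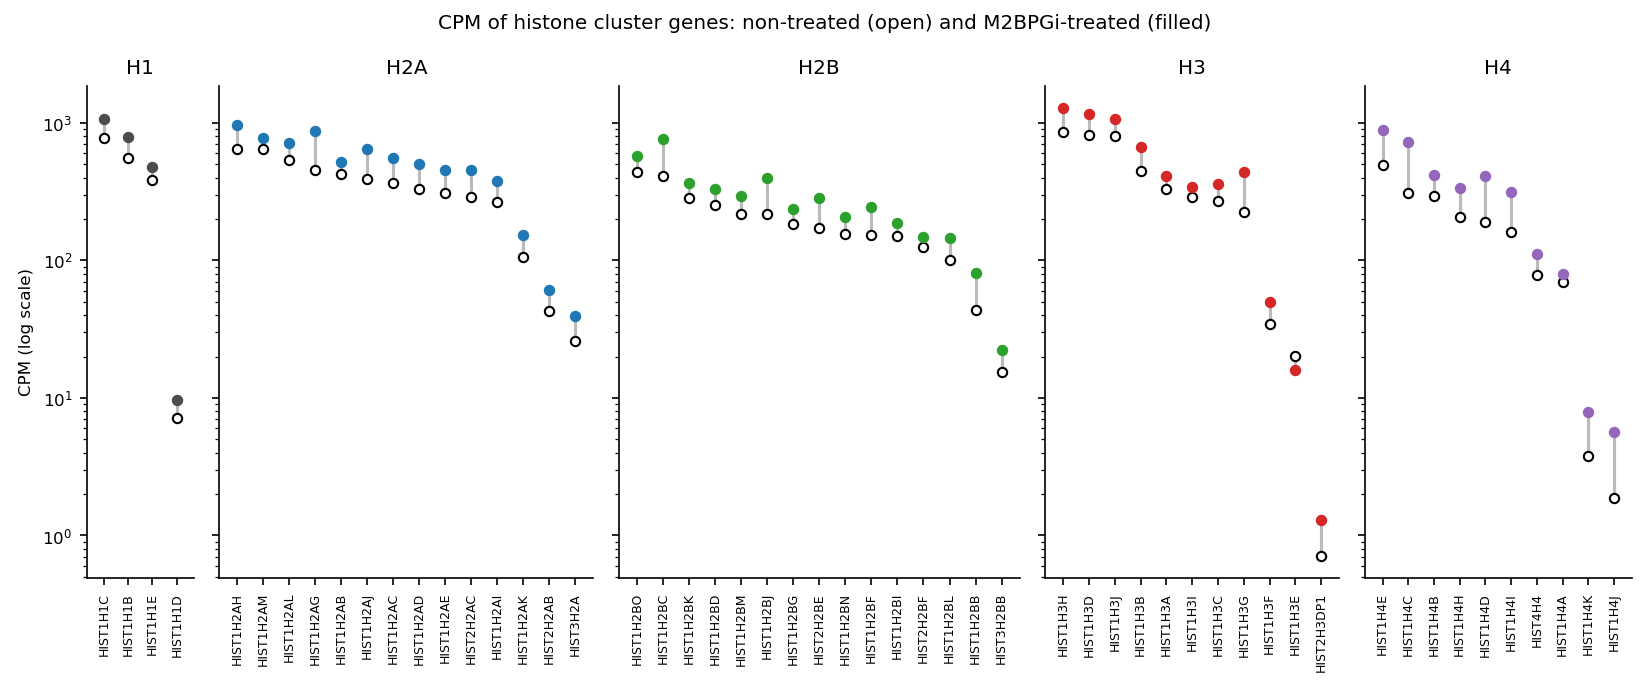
CPM of the 54 expressed histone cluster genes, by class, on a log axis. Open circles are non-treated and filled circles M2BPGi-treated cells, 1 library each, and the filled circle is the upper one for 53 genes and the lower one for HIST1H3E.

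The plot of CPM by class shows levels from about 1 CPM for HIST2H3DP1 to 1274 CPM for HIST1H3H in M2BPGi-treated cells. Within each class the spread between genes was far wider than the step between the libraries. The H2A genes held 31.4% of the members' CPM in non-treated and 31.1% in M2BPGi-treated cells, and the H3 genes held 26.6% and 25.3%. The H2B genes held 19.0% and 18.8%, and the H1 genes 11.2% and 10.3%. The share of the H4 genes was 11.8% in non-treated and 14.5% in M2BPGi-treated cells, the one class whose share was higher after treatment.

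**Figure D2:**
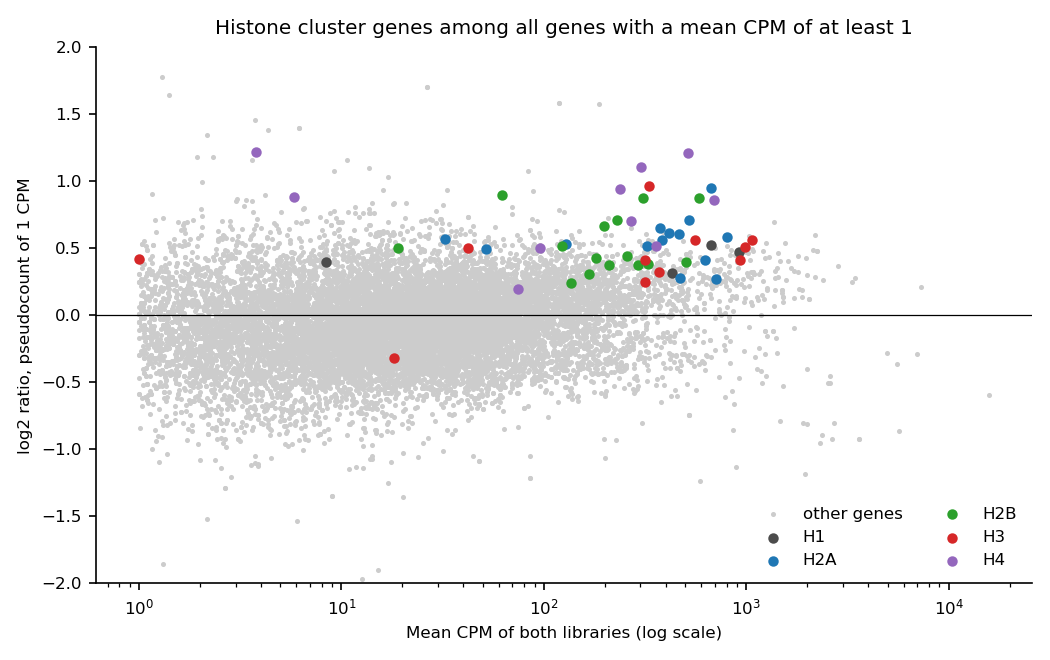
Log2 ratio against mean CPM (log axis) for the histone cluster genes, coloured by class, and all other expressed genes in grey. Another 25 genes lie beyond the axis limit of 2 in either direction, and the members lie above 0 except HIST1H3E at -0.32.

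The plot of log2 ratio against mean CPM places most members at the upper edge of genes of their own level. The grey genes spread more widely at low CPM, where few tags were counted.

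The H4 genes, which encode the same core protein from many copies, had the highest median of the 5 classes. Their summed CPM was 1809 in non-treated and 3297 in M2BPGi-treated cells, a ratio of 1.82 (interval 1.80 to 1.84). All 10 expressed H4 genes were higher, 7 of them at least 1.5-fold, and the median log2 ratio was 0.87. HIST1H4C (ENSG00000197061) had 311 CPM without and 719.99 CPM with M2BPGi, a 2.32-fold difference (interval 2.25 to 2.38). HIST1H4D (ENSG00000188987) had 189.97 and 411 CPM, which is 2.16-fold (interval 2.09 to 2.24). These were the only members averaging at least 10 CPM that were at least 2-fold higher. HIST1H4E, the most abundant H4 gene, had 492 CPM without and 892 CPM with M2BPGi. HIST1H4I had 162 and 313 CPM. HIST1H4H had 206 CPM without and 336 CPM with M2BPGi. For these 3 genes the log2 ratios were 0.86, 0.94 and 0.70. The other H4 genes of that abundance stayed under 1.5-fold. HIST1H4B had 294 and 420.3 CPM, with a log2 ratio of 0.52. HIST4H4, the single member of the cluster HIST4, had 78.9 and 112 CPM, with a log2 ratio of 0.50. HIST1H4A was the lowest of the class, with 69.4 CPM without and 79.6 CPM with M2BPGi and a log2 ratio of 0.20. The counting interval of its ratio was 1.07 to 1.23, apart from those of every other H4 gene of its abundance. Thus the H4 genes ranged from 1.15-fold to 2.32-fold among those averaging at least 10 CPM.

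Low H4 genes showed the same direction with wider intervals. HIST1H4J, the member with the highest log2 ratio of all (1.22), had 45 tags without and 141 tags with M2BPGi, or 1.87 and 5.67 CPM. Its fold of 3.03 had an interval of 2.15 to 4.34. HIST1H4K had 3.79 and 7.84 CPM, a log2 ratio of 0.88 and a fold of tag shares of 2.07 (interval 1.61 to 2.69). The opening 50 bases of HIST1H4J and HIST1H4K match each other, so tags of either could have been given to the other. HIST1H4L had 2 tags in non-treated and 1 tag in M2BPGi-treated cells, and HIST1H4F was listed at 0 in both, so no fold is given for them.

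Promoter sequences are shown for H4 genes that differed in ratio. The windows are those of RefSeq on GRCh38.p14, from 250 bases before to 50 bases after the annotated start, read on the strand of the gene. They include the promoter and the opening transcribed bases. All 62 members matched a RefSeq gene and 56 had a window. Capitals in every window mark exact matches, on either strand, to any of 5 motifs. They are the TATA box as TATAAA and the octamer as ATTTGCAT. The CCAAT box was searched by the letters of its name. The H1 box was searched as AAACACA, known from H1 promoters. The last motif, known from H4 promoters, was GGTCCG. No motif contains another. HIST1H4D (chr6:26189063-26189362, minus strand) and HIST1H4E (chr6:26204360-26204659, plus strand) were among the H4 genes with higher ratios. HIST1H4I (chr6:27139032-27139331, plus strand) also holds a CCAAT box, and HIST1H4B (chr6:26027234-26027533, minus strand) had a lower ratio.
HIST1H4D: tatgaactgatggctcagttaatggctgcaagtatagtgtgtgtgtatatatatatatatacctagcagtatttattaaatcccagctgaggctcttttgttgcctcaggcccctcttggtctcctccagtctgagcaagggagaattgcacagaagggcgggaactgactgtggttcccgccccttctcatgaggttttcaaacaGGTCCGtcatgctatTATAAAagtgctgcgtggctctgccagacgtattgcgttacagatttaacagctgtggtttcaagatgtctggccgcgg
HIST1H4E: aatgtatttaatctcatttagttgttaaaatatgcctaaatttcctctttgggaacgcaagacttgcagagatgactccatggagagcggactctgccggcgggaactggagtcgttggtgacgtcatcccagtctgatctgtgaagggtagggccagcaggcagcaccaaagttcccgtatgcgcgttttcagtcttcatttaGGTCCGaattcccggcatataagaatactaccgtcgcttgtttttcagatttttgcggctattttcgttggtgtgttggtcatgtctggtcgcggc
HIST1H4I: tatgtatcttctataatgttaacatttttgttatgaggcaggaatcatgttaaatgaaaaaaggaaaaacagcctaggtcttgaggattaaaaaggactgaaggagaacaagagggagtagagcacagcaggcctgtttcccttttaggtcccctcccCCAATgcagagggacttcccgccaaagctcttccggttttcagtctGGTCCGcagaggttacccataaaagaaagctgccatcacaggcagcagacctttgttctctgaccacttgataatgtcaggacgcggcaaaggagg
HIST1H4B: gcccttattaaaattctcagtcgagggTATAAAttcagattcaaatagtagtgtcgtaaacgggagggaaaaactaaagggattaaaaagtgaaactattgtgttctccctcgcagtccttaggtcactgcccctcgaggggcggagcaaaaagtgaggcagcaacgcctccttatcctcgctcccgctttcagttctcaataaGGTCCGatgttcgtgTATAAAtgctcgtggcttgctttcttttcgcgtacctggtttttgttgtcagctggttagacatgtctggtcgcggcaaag
GGTCCG was in 10 of 10 H4 windows, against 11.3% of all 35116 RefSeq windows. In all 10 it began 44 to 47 bases before the start on the strand of the gene, a place chosen after the matches were seen. Of all windows, 0.128% hold it there. A CCAAT box was in 3 of 10 H4 windows, against 34.6% of all windows. HIST1H4I was the only expressed one of these 3 genes. Since every H4 window holds GGTCCG, it does not separate HIST1H4D from HIST1H4B. Matches are descriptions of letters and not of bound factors.

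**Figure D3:**
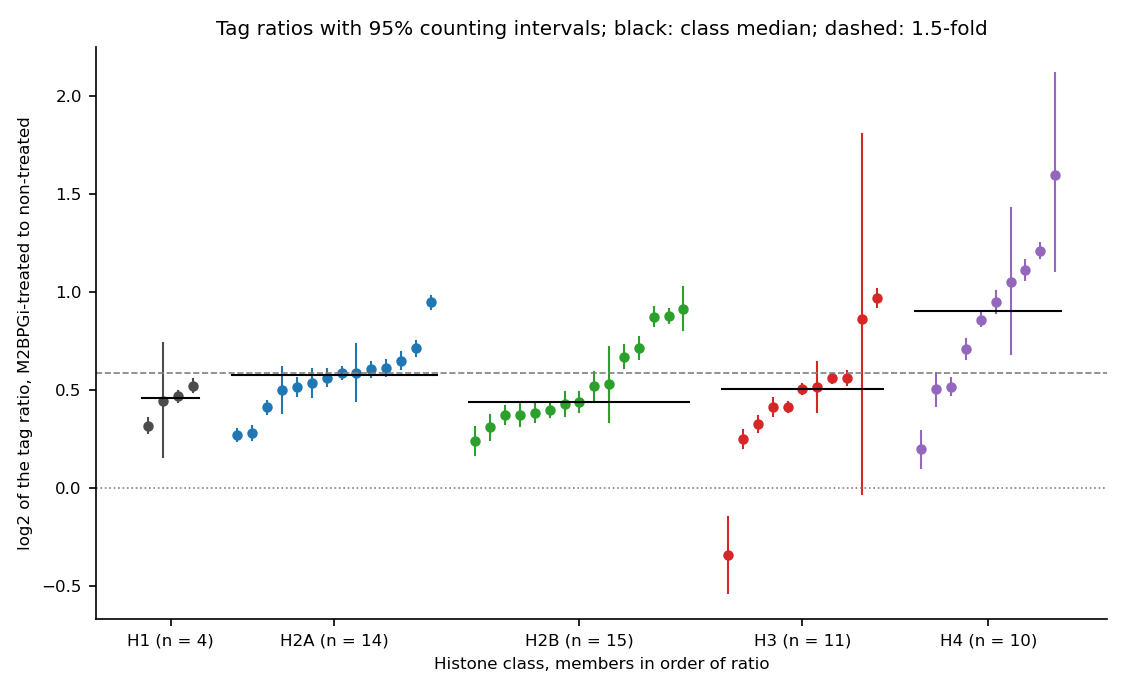
Log2 of the tag ratio of treated to untreated cells, without a pseudocount, for the 54 expressed members by class. Bars are 95% counting intervals, black lines are class medians (0.90 for H4, 0.58 for H2A, 0.51 for H3, 0.46 for H1 and 0.44 for H2B), and the dashed line marks 1.5-fold. Calls at 1.5-fold were made with a pseudocount and can differ from this line.

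In the plot of tag ratios by class, the intervals of many neighbouring genes overlap, so the order of genes within a class is often not resolved. Genes at opposite ends of a class, such as HIST1H2AG and HIST1H2AM, have intervals that do not overlap. Long bars belong to genes with few tags, such as HIST2H3DP1 and HIST1H4J.

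The H2A genes had a median log2 ratio of 0.57, with 14 of 14 higher and 6 at least 1.5-fold higher. Their CPM summed to 4829 in non-treated and 7098 in M2BPGi-treated cells, a ratio of 1.47 (interval 1.459 to 1.481). HIST1H2AG (ENSG00000196787) had the highest ratio of the class, with 456 CPM without and 879 CPM with M2BPGi, which is 1.93-fold (interval 1.88 to 1.97). HIST1H2AJ followed with 394 and 645 CPM, a log2 ratio of 0.71. HIST2H2AC had 290.3 and 456 CPM, a log2 ratio of 0.65. These were the H2A genes with log2 ratios over 0.61. HIST1H2AD had 329 CPM without and 502 CPM with M2BPGi. For HIST1H2AC the levels were 368 and 559.8 CPM. HIST1H2AH, the most abundant H2A gene, had 643 and 966 CPM. These 3 genes sat just past the threshold, with log2 ratios of 0.61, 0.60 and 0.59. HIST3H2A had 26.1 CPM without and 39.2 CPM with M2BPGi. HIST1H2AE had 309 and 457 CPM. HIST1H2AK had 105 and 153 CPM. Their log2 ratios of 0.57, 0.56 and 0.53 were just under the 1.5-fold threshold of 0.58. By tag shares, without the pseudocount, HIST3H2A was 1.504-fold (interval 1.36 to 1.66). HIST1H2AI had 265 and 379 CPM. HIST2H2AB had 43.0 and 60.8 CPM. HIST1H2AL had 534 CPM without and 711 CPM with M2BPGi. Their log2 ratios were 0.52, 0.49 and 0.41. At the low end of the class, HIST1H2AB had 425 and 517 CPM. HIST1H2AM had 641 and 774 CPM and the lowest log2 ratio, 0.27 (1.21-fold, interval 1.18 to 1.23). It was the second most abundant H2A gene in non-treated cells, so level and ratio did not run in parallel in this class. HIST1H2AA, whose protein is known from testis, had 0.92 and 0.56 CPM, from 22 and 14 tags. Its interval of 0.291 to 1.26 includes 1.

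The H2B genes had a median log2 ratio of 0.44, with 15 of 15 higher and 5 at least 1.5-fold higher. Their CPM summed to 2924 in non-treated and 4284 in M2BPGi-treated cells, a ratio of 1.47 (interval 1.45 to 1.48). A gap in log2 ratio from 0.67 to 0.51 lay under the 5 genes past 1.5-fold, although the interval of HIST3H2BB reaches across it. HIST1H2BB had the highest ratio, with 43.3 CPM without and 81.6 CPM with M2BPGi (1.88-fold, interval 1.75 to 2.03). HIST1H2BC (ENSG00000180596), the H2B gene with the highest level after treatment, had 413 and 759 CPM (1.84-fold, interval 1.79 to 1.88). HIST1H2BJ had 218 and 399 CPM (1.83-fold, interval 1.77 to 1.90). The intervals of these 3 genes overlap, so their order is not resolved. HIST2H2BE had 173 and 285 CPM, a log2 ratio of 0.71. HIST1H2BF had 154 and 244 CPM, a log2 ratio of 0.67. The next gene, HIST1H2BL, was at 0.51, with 101 CPM without and 144 CPM with M2BPGi. HIST3H2BB had 15.6 and 22.4 CPM. HIST1H2BM had 218 CPM without and 296 CPM with M2BPGi. HIST1H2BN had 154 and 208 CPM. These genes had log2 ratios of 0.50, 0.44 and 0.42. HIST1H2BO had 437 CPM, the highest H2B level in non-treated cells, and 576 CPM after treatment. HIST1H2BK had 282 and 368 CPM. HIST1H2BG had 184 and 238 CPM. HIST1H2BO, HIST1H2BK and HIST1H2BG were within 0.37 to 0.40 on the log2 scale. HIST1H2BD had 253 and 328 CPM, a log2 ratio of 0.37. HIST1H2BI had 150.04 and 186 CPM, a log2 ratio of 0.31. HIST2H2BF had the lowest ratio of the class and of HIST2, with 125 and 147 CPM and a log2 ratio of 0.24. It shares its opening bases with HIST2H2BB, so the assignment of its tags is uncertain.

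A few H2B genes averaging under 1 CPM were lower after treatment. HIST1H2BE had 32 tags without and 15 tags with M2BPGi, and HIST1H2BA, another gene known from testis, had 26 and 12. The intervals of their folds were 0.228 to 0.862 and 0.205 to 0.916. Both lie under 1, unlike those of the abundant H2B genes. HIST1H2BH had 1 tag without and 0 tags with M2BPGi, too few for a fold.

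Most H2A and H2B genes of the clusters lie in facing pairs, with starts close together and transcription running outward. The RefSeq starts gave 11 such pairs, 194 to 248 bases apart, whose windows overlap by 253 to 293 bases. In 10 pairs both genes were expressed, and in all 10 both were higher. The window of HIST1H2AG (chr6:27132793-27133092, plus strand) shares 253 bases with that of its partner HIST1H2BJ, and both genes were near the top of their class. The window of HIST1H2BC (chr6:26123877-26124176, minus strand) shares 255 bases with that of HIST1H2AC, and the members of this pair differed in ratio.
HIST1H2AG: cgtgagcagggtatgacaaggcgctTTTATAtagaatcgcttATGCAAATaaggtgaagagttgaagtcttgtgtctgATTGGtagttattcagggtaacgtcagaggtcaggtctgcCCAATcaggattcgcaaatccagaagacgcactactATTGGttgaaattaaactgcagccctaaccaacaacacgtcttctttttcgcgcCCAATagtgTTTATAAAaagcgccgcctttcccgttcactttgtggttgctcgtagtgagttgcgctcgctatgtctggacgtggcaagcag
HIST1H2BC: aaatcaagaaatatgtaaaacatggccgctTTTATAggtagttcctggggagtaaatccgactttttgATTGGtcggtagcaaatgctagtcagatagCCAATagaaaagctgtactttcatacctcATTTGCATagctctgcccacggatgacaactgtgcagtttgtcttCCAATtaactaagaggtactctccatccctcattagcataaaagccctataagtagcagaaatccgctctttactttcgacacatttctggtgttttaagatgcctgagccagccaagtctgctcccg
The octamer ATTTGCAT was in 11 of 14 H2A windows and 14 of 18 H2B windows, against 1.77% of all windows, and in 0 windows of H1, H3 and H4. It stood on the strand of the gene in 13 H2B windows and on the other strand in 10 H2A windows. Partners share the same letters, so these windows are not independent. In 8 H2B windows it began 45 to 49 bases before the start, again a place chosen after the matches were seen, against 0.0683% of all windows. CCAAT was in every window of H1, H2A, H2B and H3. The 21 expressed H2A and H2B genes with an octamer had a median log2 ratio of 0.56, and the 7 with a window but no octamer had 0.51. Of these groups, 10 and 0 genes were at least 1.5-fold higher. Their log2 ratios ran from 0.24 to 0.95 with an octamer and from 0.37 to 0.57 without. The highest gene without an octamer, HIST3H2A at 0.57, lay just under the log2 threshold of 0.585. By tag shares it was 1.504-fold, so the split in counts depends on where the threshold lies. Whether the octamer bears on the ratio was not tested.

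**Figure D4:**
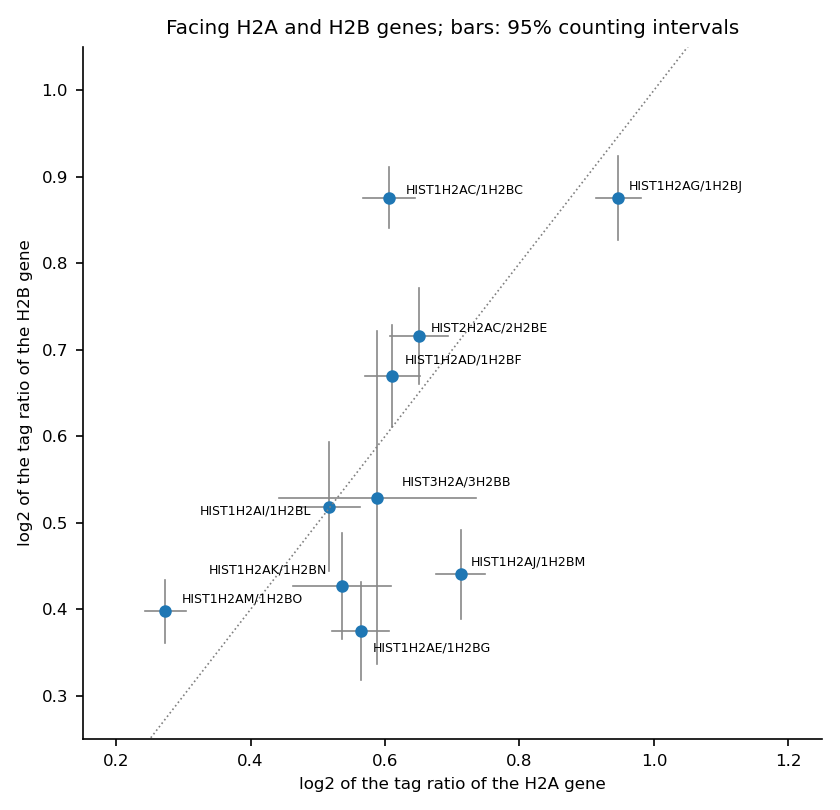
Log2 of the tag ratio of the H2A gene (x axis) and the H2B gene (y axis) of the 10 facing pairs with both genes expressed, with 95% counting intervals. The dotted line marks equal ratios, and all pairs lie above 0 on both axes.

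The plot of facing pairs shows partners with like ratios beside partners that differ. HIST1H2AI and HIST1H2BL had log2 ratios of 0.52 and 0.51, which before rounding differ by 0.000459. HIST1H2AG and HIST1H2BJ had 0.95 and 0.87, the highest of any pair. The widest gap was that of HIST1H2AJ at 0.71 and HIST1H2BM at 0.44. HIST1H2AC at 0.60 and HIST1H2BC at 0.87 differed almost as much in the other direction. HIST1H2AE was also above its partner HIST1H2BG, while HIST1H2AM was below HIST1H2BO. In these 4 pairs the counting intervals of the partners do not overlap. The median gap was 0.09. Across the 10 pairs Pearson's r was 0.62 and Spearman's rho 0.59, as a description of genes that share libraries and window sequence. In level, the H2A gene was the more abundant partner in 8 of 10 pairs in non-treated cells. HIST1H2AD and HIST1H2BF were one such pair, at 329 and 154 CPM.

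The H3 genes had a median log2 ratio of 0.42, with 10 of 11 higher and 1 at least 1.5-fold higher. This median is the value of HIST2H3DP1, a pseudogene with few tags. Among H3 genes averaging at least 10 CPM the median was 0.46. The CPM of all H3 genes summed to 4094 in non-treated and 5778 in M2BPGi-treated cells, a ratio of 1.41 (interval 1.40 to 1.42). HIST1H3H (ENSG00000203813) was the most abundant member in both libraries, with 865 and 1274 CPM (1.47-fold, interval 1.448 to 1.499). HIST1H3D was next, with 813 CPM without and 1156 CPM with M2BPGi. Its annotated starts include one shared with HIST1H2AD, so tags of this pair may have been assigned to either. HIST1H3J had 799 and 1064 CPM. HIST1H3B had 448 and 662 CPM. The log2 ratios of HIST1H3D, HIST1H3J and HIST1H3B were 0.51, 0.41 and 0.56. The most abundant H3 genes were thus all under 1.5-fold. By the log2 ratio HIST1H3G (ENSG00000256018) alone passed it. HIST1H3G had 223 CPM without and 437 CPM with M2BPGi (1.96-fold, interval 1.89 to 2.02). HIST1H3C had 272 and 362 CPM, a log2 ratio of 0.41. HIST1H3A had 329 and 412 CPM, a log2 ratio of 0.33. In the order of ratios these were followed by HIST1H3I. HIST1H3I had 289 CPM without and 343 CPM with M2BPGi, a log2 ratio of 0.25. HIST1H3F, at 34.7 and 49.6 CPM, had a log2 ratio of 0.50. HIST1H3E (ENSG00000196966) was the exception, with 20.2 CPM without and 15.97 CPM with M2BPGi, a fold of 0.790 (interval 0.690 to 0.904). It was the one expressed member whose counting interval lay under 1.

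Windows of 3 H3 genes are shown for the most abundant member, the member with the highest H3 ratio and the exception. HIST1H3H lies at chr6:27809801-27810100 on the plus strand, HIST1H3G at chr6:26271364-26271663 on the minus strand and HIST1H3E at chr6:26224885-26225184 on the plus strand.
HIST1H3H: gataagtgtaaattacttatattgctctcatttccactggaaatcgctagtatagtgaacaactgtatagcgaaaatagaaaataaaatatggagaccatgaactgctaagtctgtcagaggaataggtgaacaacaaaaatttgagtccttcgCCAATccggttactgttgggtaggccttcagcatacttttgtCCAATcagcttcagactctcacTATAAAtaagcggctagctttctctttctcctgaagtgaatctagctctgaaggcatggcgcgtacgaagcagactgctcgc
HIST1H3G: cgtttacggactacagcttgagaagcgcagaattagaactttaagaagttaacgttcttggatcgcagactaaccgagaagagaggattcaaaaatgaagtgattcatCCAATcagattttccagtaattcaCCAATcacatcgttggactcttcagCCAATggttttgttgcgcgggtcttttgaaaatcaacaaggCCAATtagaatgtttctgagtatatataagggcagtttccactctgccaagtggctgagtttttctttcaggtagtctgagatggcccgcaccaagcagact
HIST1H3E: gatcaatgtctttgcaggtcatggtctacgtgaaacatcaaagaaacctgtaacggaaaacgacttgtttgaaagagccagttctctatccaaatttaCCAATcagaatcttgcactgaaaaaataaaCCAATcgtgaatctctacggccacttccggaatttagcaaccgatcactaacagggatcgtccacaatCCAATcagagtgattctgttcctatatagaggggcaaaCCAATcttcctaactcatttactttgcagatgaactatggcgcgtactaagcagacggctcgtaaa
TATAAA was in 37 of 56 windows of members, against 11.5% of all windows, and in 7 of 10 H3 windows. In 30 of the 56 it began 28 to 33 bases before the start on the strand of the gene, a place also chosen after the matches were seen, against 1.95% of all windows. The 31 expressed members with TATAAA had a median log2 ratio of 0.52, and the 17 with a window without it also had 0.52. The windows of HIST1H3G and HIST1H3E both hold 4 copies of CCAAT and no TATAAA, and the genes lay at the upper and lower ends of the H3 ratios.

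The remaining H3 genes were rare or not seen. HIST2H3DP1, which the rule takes although the annotation calls it a pseudogene, had 0.71 and 1.29 CPM from 17 and 32 tags. Its fold of tag shares was 1.82, and the interval of 0.981 to 3.49 includes 1. HIST2H3D had 7 and 9 tags. HIST3H3, known from testis, was listed at 0 in both libraries.

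The H1 genes, which encode linker histones, had a median log2 ratio of 0.43, with 4 of 4 higher and 0 at least 1.5-fold higher. Their CPM summed to 1717 in non-treated and 2353 in M2BPGi-treated cells, a ratio of 1.37 (interval 1.35 to 1.39). HIST1H1C (ENSG00000187837) was the most abundant, with 775 CPM without and 1072 CPM with M2BPGi (1.38-fold, interval 1.36 to 1.41). HIST1H1B had the highest ratio of the class, with 552 and 792 CPM (1.44-fold, interval 1.405 to 1.47). HIST1H1E had the lowest, with 384 and 479 CPM (1.247-fold, interval 1.21 to 1.28). These 3 intervals do not all overlap, so HIST1H1E was below the others by more than counting error. HIST1H1D had 7.11 and 9.69 CPM, and the interval of its fold, 1.12 to 1.67, spans the folds of the others. The H1 box AAACACA, which gives the H1 promoters their own mark, is shown in the window of HIST1H1C (chr6:26056421-26056720, minus strand).
HIST1H1C: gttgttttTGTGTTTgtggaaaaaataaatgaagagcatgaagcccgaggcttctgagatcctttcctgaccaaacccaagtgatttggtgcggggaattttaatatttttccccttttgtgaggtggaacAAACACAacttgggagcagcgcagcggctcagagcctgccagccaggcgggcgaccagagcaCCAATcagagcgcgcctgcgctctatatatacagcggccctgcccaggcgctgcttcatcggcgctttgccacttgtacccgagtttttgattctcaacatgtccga
AAACACA was in 4 of 4 H1 windows, against 5.64% of all windows. It began 117 to 119 bases before the start on the strand of the gene in all 4, a place chosen after the matches were seen, against 0.0399% of all windows. Elsewhere among the members it was in 1 H2A window.

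By cluster, the medians were closer together than by class. HIST1, on chromosome 6, had 46 expressed members and a median log2 ratio of 0.52, with 17 at least 1.5-fold higher. Its CPM summed to 14620 in non-treated and 21686 in M2BPGi-treated cells, a ratio of 1.48. HIST2, on chromosome 1, had 5 expressed members, a median of 0.49 and sums of 632 and 949.8 CPM, a ratio of 1.503. HIST3, also on chromosome 1, had 2 expressed members, a median of 0.54 and sums of 41.6 and 61.7 CPM, a ratio of 1.48. HIST4, on chromosome 12, is HIST4H4 alone. In HIST3 the interval was 1.37 to 1.61 and in HIST2 1.47 to 1.53, which both include the ratio of HIST1. The sums of these 3 clusters were thus higher alike within counting error, from levels that differed more than 100-fold.

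Gaps of more than 300 kb divide the HIST1 members with a window into 3 blocks. HIST1H2AH, HIST1H4A, HIST1H4C, HIST1H3I and HIST1H3J had no window and were not placed. The blocks are thus incomplete, and their medians and sums leave these genes out. The 24 expressed members of block 1 had a median log2 ratio of 0.51, and the 13 of block 3 had 0.52. The members placed in block 2 were HIST1H2BJ, HIST1H2AG, HIST1H4I and HIST1H2BK, with a median of 0.91. Among these few placed members, HIST1H2BK at 0.38 stood apart from the other 3 at 0.87 to 0.95. Summed CPM in block 2 was 1118 in non-treated and 1959 in M2BPGi-treated cells, a ratio of 1.75 (interval 1.73 to 1.78). The ratios of the sums were 1.49 (interval 1.478 to 1.496) in block 1 and 1.40 (interval 1.39 to 1.41) in block 3.

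Some histone cluster genes are known to make polyadenylated mRNAs as well, which do not depend on S phase in the same way. HIST1H1C, HIST1H2AC, HIST1H2BD, HIST1H2BK and HIST2H2BE were listed as such. All 5 were higher, with a median log2 ratio of 0.47, and HIST2H2BE and HIST1H2AC were at least 1.5-fold higher. CAGE reads the cap, so the tags do not tell which end a transcript had.

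Replication-independent histone variants, whose mRNAs are mostly polyadenylated, had a median log2 ratio of 0.14, with 9 of 12 higher and 0 at least 1.5-fold higher. H1F0 had 88.1 and 116 CPM, H2AFX had 228 and 290.2 CPM, and H3F3A had 414 and 526 CPM. H2AFZ had 679 and 802 CPM, and H3F3B had 192 and 194 CPM. CENPA, the centromeric H3 variant, had 142 CPM without and 111 CPM with M2BPGi. H3F3C, with a mean under 10 CPM, was the 1 variant at least 1.5-fold lower.

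Genes that act on histone transcripts were described as lists. Of 10 genes of histone gene transcription, 1 was higher, and the median log2 ratio was -0.17. NPAT, the coactivator that marks histone locus bodies, had 17.2 and 13.4 CPM, and CASP8AP2 had 19.0 and 16.3 CPM. HINFP, which binds H4 promoters, had 10.4 and 11.95 CPM, with an interval of the log2 tag ratio of -0.05 to 0.44. CCNE1 had a log2 ratio of -0.05, GON4L of -0.46 and ATM of -0.57. Of 14 genes of histone mRNA 3′ end processing, 12 were higher, with a median of 0.14. LSM10, a U7 snRNP subunit, had 32.2 CPM without and 49.7 CPM with M2BPGi. It was the 1 gene of the list called at least 1.5-fold higher by the log2 ratio. ZNF473, another U7 partner, had 3.24 and 5.31 CPM, a log2 ratio of 0.57 and a fold of tag shares of 1.64. LSM11 had 6.07 and 5.43 CPM. SLBP had 96.1 and 104 CPM, SNRPD3 had 94.97 and 138 CPM, SYMPK had 79.2 and 82.7 CPM, and CPSF2 had 34.1 and 32.0 CPM. Of 14 genes of histone mRNA decay, 8 were higher, with a median of 0.11. LSM2 and LSM6 had the highest log2 ratios, 0.51 and 0.49, and UPF1 and ZCCHC6 the lowest, -0.29 and -0.28. ERI1, the exonuclease that trims the stem-loop, had 28.1 and 27.4 CPM. Of 14 histone chaperones and assembly factors, 7 were higher. Their median was 0.00, and its sign changed when CPM was taken over the tags on listed genes. SSRP1 and ASF1A had log2 ratios of 0.56 and 0.45, SPTY2D1 and MMS22L of -0.19 and -0.41. NASP had 77.04 and 69.6 CPM, and ASF1B had 23.6 CPM and 22.9 CPM.

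S phase and mitosis genes were not higher as groups. Of 30 S phase genes 10 were higher, with a median log2 ratio of -0.10, and of 20 mitosis genes 5 were higher, with a median of -0.16. PCNA had 84.9 and 88.0 CPM and RRM2 had 105 and 102 CPM. GINS1 and RPA1 were highest at 0.47 and 0.22, and POLE was at -0.51. MKI67 had 90.2 and 64.9 CPM, BIRC5 and PLK1 had log2 ratios of 0.49 and 0.39, and KIF20A of -0.29.

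**Figure D5:**
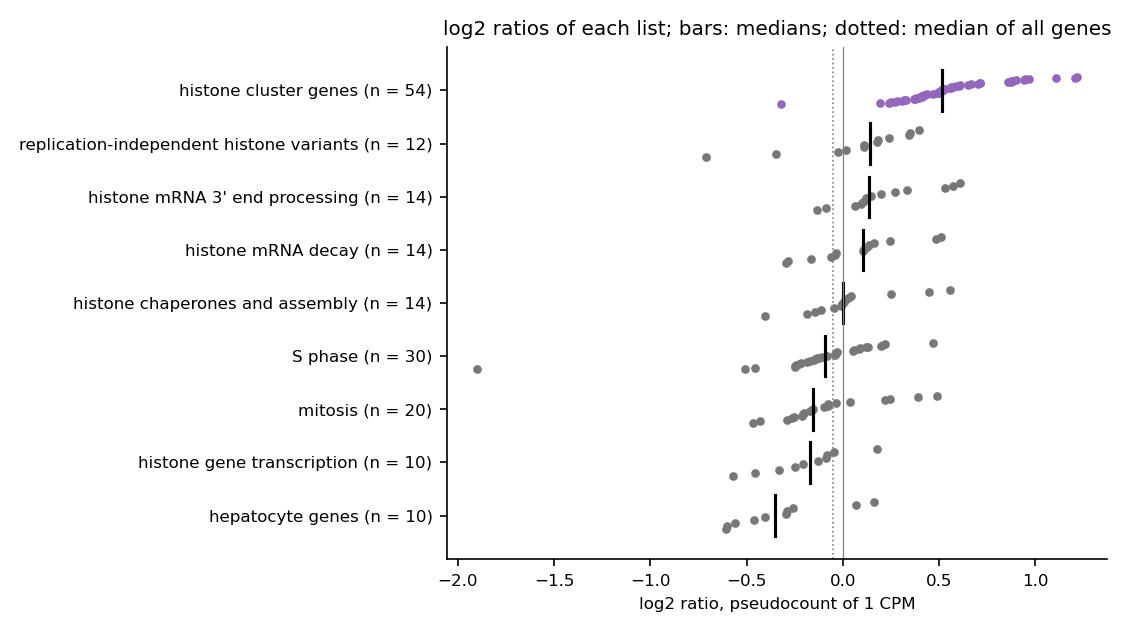
Log2 ratios of single genes (points), expressed genes only, by list, with a pseudocount of 1 CPM. Black bars are medians, from 0.51 for the histone cluster genes to -0.35 for the hepatocyte genes, and the dotted line is the median of all genes, -0.05.

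The plot of log2 ratios by list sets the histone cluster genes beside the other lists. Their lowest gene but one, HIST1H4A at 0.20, was above the medians of all lists of other genes.

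Markers of the cell type were read in the same libraries. All 10 hepatocyte or hepatoma genes were listed, with sums of 2457 CPM without and 1769 CPM with M2BPGi, and 8 were lower. FGB was the most abundant, with 950.03 and 623 CPM, while ALB had 8.82 and 7.04 CPM. Of 6 leukocyte markers 3 were listed, with sums of 53.2 and 49.7 CPM, LYZ as the most abundant and PTPRC at 0 in both. Of 6 fibroblast and stellate markers 2 were listed, COL1A1 and COL3A1, with sums of 5.20 and 4.18 CPM. Of 5 endothelial markers 0 were listed. The part of these differences in the histone result was not tested.

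Members are mostly short, with a median longest transcript of 463 nt in GENCODE v29. Of the 54 expressed members, 44 were no longer than 1626 nt, and the longest had 4137 nt. Of 2702 other genes in the shortest 20%, up to 1626 nt, 1420 were higher, and their median was 0.02. Other genes with a single exon had a median of -0.01, and 520 of 1065 were higher. The 44 members with a single exon had a median of 0.52. Histone genes resemble each other in sequence, so copies matter for the tags. Of 56 members searched, 6 had a copy of their opening 50 bases under another symbol. The 43 expressed members that were searched and had no such copy had a median log2 ratio of 0.52, with 42 higher and 14 at least 1.5-fold higher. What was done with tags matching more than 1 gene is not given in the sources used here.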

How the data were processed

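CAGE tags of PLC/PRF/5 cells were measured in 1 non-treated and 1 M2BPGi-treated library. The authors mapped the tags with BWA and deposited a CPM for each gene with 2 decimals. The paper's methods name a mouse genome, while the gene identifiers are human and the submitters' processing notes name hg19, BWA and HISAT2. How tags were assigned to genes is not given in the sources used here. Tags were read back from the steps of the deposited CPM, and 100% of them fit whole tags within the rounding by a search over all values. A separate check of low values found whole tags for too few values of the non-treated library, so no count test was run. The tags served for depth, tag counts, folds of tag shares and counting intervals, which all rest on the search.

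Log2 ratios had a pseudocount of 1 CPM and were described over genes averaging at least 1 CPM. Members and lists were chosen with earlier results of these data known. Members averaging at least 10 CPM are named, as are the extremes of log2 ratio in each class and cluster. In the other lists up to 2 of the highest and 2 of the lowest averaging at least 10 CPM are named, beside a set of regulators. Members with few tags, H3F3C and some markers were named after their values were seen. The lists are histone gene transcription, 3′ end processing, decay, chaperones and assembly, replication-independent variants, S phase, mitosis, polyadenylated histone genes and markers of 4 cell types.

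Promoter windows come from RefSeq on GRCh38.p14 and transcripts from GENCODE v29, also GRCh38, a build that differs from hg19. RefSeq genes were matched by symbol or older symbol, and Entrez identifiers in GENCODE v29 settled symbols that fit more than 1 gene. GENCODE transcripts were matched by gene identifier, or by symbol where the identifier was absent. Where RefSeq gave several starts, the most downstream was used. A copy was a match of at least 45 of 50 bases with at least 95% identity in another gene's transcripts or windows (BLAST+ 2.17.0). Python 3.11.15, numpy 2.4.6, pandas 2.3.3, scipy 1.17.1 and matplotlib 3.10.9 were used, and the calculation was tested on simulated data. Alternatives were other pseudocounts, filters, fold thresholds and scalings of the libraries.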

Additional observations from a re-analysis of the deposited data

How the results depend on the processing

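With 1 library per condition, neither a paired analysis nor leaving out a library was possible. Of 148 values under an alternative, 120 stayed close to the main value and 0 reversed. For medians, close meant a shift within the typical margin (middle to end) of single genes' counting intervals, since medians have no interval here. For the sum its own interval was used, and for counts a factor of 1.5. A median counted as reversed only if its sign changed and its main value was beyond that margin. With the libraries rescaled to a median log2 ratio of 0, the members' median of 0.51 was 0.57 and the ratio of their sums, 1.48, was 1.54. The medians were then 0.49 for H1, 0.62 for H2A, 0.50 for H2B, 0.47 for H3, 0.93 for H4, 0.57 for HIST1 and 0.53 for the genes with polyadenylated mRNAs. With a pseudocount of 5 CPM the medians were 0.39 for H1 and 0.66 for H4, where low genes weigh in. With a pseudocount of 0.1 CPM they were 0.51 for H3 and 0.65 for HIST2. For genes averaging at least 10 CPM they were 0.78 for H4 and 0.57 for HIST2. At fold thresholds of 5/4 and 2, 46 and 3 members were higher and 1 and 0 lower, and of all genes 1240 and 33 were higher and 2534 and 59 lower. Against 219 higher and 555 lower genes by the 1.5-fold rule, a pseudocount of 0.1 gave 337 and 857, one of 5 gave 91 and 164, and an average of at least 10 CPM gave 135 and 223. The median of the chaperones, 0.0028, was -0.0011 with CPM over the tags on listed genes. In alternatives chosen after seeing the data, 19 members were at least 1.5-fold higher without HIST2H3DP1 and 14 among the 43 members left when both those with a copied start and those without a window to search were taken out. The cause of these shifts was not tested. Counting error is small for the abundant members, and the missing replicates limit every comparison. Values were taken at a single dose and a single time, so no course can be read from them. CPM are shares of a library, and the total RNA per cell was not measured. Near-identical histone genes may have exchanged tags, and 6 members had no window in which this could be searched. The levels are those of RNA with a cap, and neither protein nor the phase of the cell cycle was measured.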

Other observations

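Of the 4 histone pseudogenes left out by the rule, HIST1H2APS2 had 25.1 CPM without and 18.9 CPM with M2BPGi, from 604 and 469 tags. HIST1H2BPS2 had 1.62 and 1.41 CPM, from 39 and 35 tags. HIST1H2APS4 and HIST1H2BPS3 were listed at 0 in both libraries. The intervals of the log2 tag ratio were -0.59 to -0.24 for HIST1H2APS2 and -0.91 to 0.49 for HIST1H2BPS2.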
